A study of Rattus norvegicus with 4 samples.

Results

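Expression of 10 genes of fatty acid synthesis, the lipogenic enzymes and their regulators, was followed in the livers of rats with diet-induced steatohepatitis. The genes were taken by name: the regulators Srebf1, Mlxipl and Thrsp, the enzymes Acly, Acaca, Fasn and Me1 of fatty acid synthesis, and the elongase and desaturases Elovl6, Scd and Fads1. Probes were matched through the file's transcript accession or symbol, and 8 of the 10 genes were found among 20024 genes on the array, Scd under its older name Scd1. Fasn and Mlxipl were not analysed here. Of the 8 genes, 6 lay above background on all 4 arrays, namely Thrsp, Acly, Me1, Scd, Elovl6 and Fads1, and most of what follows concerns these 6.

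All rats were Sprague-Dawley, received an intraperitoneal dose of the liver carcinogen diethylnitrosamine at 10 weeks of age, and then ate a methionine-choline deficient diet for 12 weeks. They were either wild type or carried a dominant negative connexin 32 transgene, which interferes with the main gap junction protein of hepatocytes, and the diet of some contained luteolin, a plant flavonoid. Each genotype was thus studied with and without luteolin, which gives 4 groups, with 1 single-colour array of liver RNA each. No group lacked the carcinogen or the deficient diet, so the level of these genes in a normal liver is not known from these arrays. The sources used here do not give the transgene promoter, the luteolin dose, the sex of the rats or whether RNA was pooled. With 1 array per group no ratio has a replicate check, and "higher" and "lower" below describe 2 arrays and carry no test.

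De novo lipogenesis turns carbohydrate carbon into fat. ATP-citrate lyase (Acly) releases cytosolic acetyl-CoA, acetyl-CoA carboxylase (Acaca) makes malonyl-CoA, fatty acid synthase (Fasn) builds palmitate, and malic enzyme (Me1) supplies NADPH. The elongase Elovl6 and the delta-9 desaturase Scd convert palmitate to longer and monounsaturated fatty acids, and the delta-5 desaturase Fads1 acts on polyunsaturated ones. In liver the pathway is switched on after feeding by the transcription factors SREBP-1c (from Srebf1) and ChREBP (from Mlxipl), while Thrsp encodes Spot 14, a thyroid hormone and carbohydrate responsive protein that promotes lipogenesis. In mice the methionine-choline deficient diet is known for low hepatic Scd1.

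The 4 arrays had raw median intensities between 48.0 and 54.4 and a value above background for 72.5% to 78.7% of probes. Hepatocyte markers identified the tissue: all 9 with a probe lay above background on all 4 arrays, and their summed deposited intensity ranged from 92365 to 132010. Of 8 adipocyte markers, Plin1 was above background on no array, Lep and Retn on 2 each and Adipoq on 3. The transgenic array without luteolin stood apart in stellate and cholangiocyte markers. The summed intensity of 7 stellate cell and myofibroblast markers was 3037 there against 971 to 1611 on the other 3 arrays. Col3a1 made 2305 of the 3037. For 6 cholangiocyte markers the sum was 787 against 354 to 542. The sum of 6 macrophage markers was 4033 against 2122 to 2700, of which Lyz2 made 2555, while the Kupffer cell markers Clec4f (419) and Cd163 (36.7) were lowest on that array. The sum of the adipocyte markers was 5024 against 2303 to 3346, of which Pck1, also a gluconeogenic gene of hepatocytes, made 4482. The summed erythroid markers were lowest there, at 923 against 1175 to 2127. The hepatocyte sum on that array was 103559, within the range of the other arrays. In whole liver, a change in hepatocyte number and one in RNA per hepatocyte cannot be told apart.

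The regulators came first. Srebf1 lay at the edge of detection. Its raw intensity was 41.9 in transgenic liver without luteolin and 38.1 with it, and 39.8 in wild-type liver without luteolin and 40.7 with it, and it was above background on 3 arrays by at most 2.29 units, so no fold is given for it. Thrsp was well measured. Its intensity, as normalized by the authors, was 509 in transgenic liver without luteolin and 765 with it, and 844 in wild-type liver without luteolin and 1218 with it. After quantile normalization these were log2 levels of 9.46, 10.24, 10.12 and 10.39, which places the transgenic array without luteolin 0.78 below the median of the other 3, while those 3 lay within 0.27 of each other. Thrsp was thus low on 1 array alone, a description used here for a gap of 0.7 or more with the others within 0.4. On the deposited values the other 3 arrays spanned 0.67 on the log2 scale, so the description does not hold on those values.

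Among the desaturases and the elongase, Scd and Fads1 had the same low array. Scd had deposited intensities of 464, 626, 889 and 970 in the same order, and quantile-normalized log2 levels of 9.33, 9.93, 10.20 and 10.09. It too was low on the transgenic array alone, by 0.76, with the other 3 within 0.26, and again not on the deposited values, where those 3 spanned 0.63. Fads1 had deposited intensities of 868, 1055, 1411 and 1822 in the same order and log2 levels of 10.20, 10.66, 10.83 and 10.96, lowest on the transgenic array but with no single array apart by the rule above. Elovl6 was dim, 45.2 to 99.8 intensity units above background, and its log2 levels of 6.71, 6.71, 6.92 and 7.14 put both transgenic arrays together at the bottom. Its deposited intensities were 43.1, 35.1, 54.6 and 80.2.

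The enzymes that supply acetyl-CoA and NADPH differed mainly on the wild-type luteolin array. Acly had deposited intensities of 648 and 597 in transgenic liver without and with luteolin and of 717 and 1110 in wild type, and log2 levels of 9.80, 9.87, 9.90 and 10.26. Me1 had 268, 246, 279 and 544, and log2 levels of 8.62, 8.73, 8.65 and 9.31. For both genes the first 3 arrays lay close together and the wild-type luteolin array stood highest, by 0.57 for Me1 above the next array. Acaca was above background on no array, with raw intensities between 38.0 and 40.3, so these data carry no reading of Acaca.

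**Figure D1:**
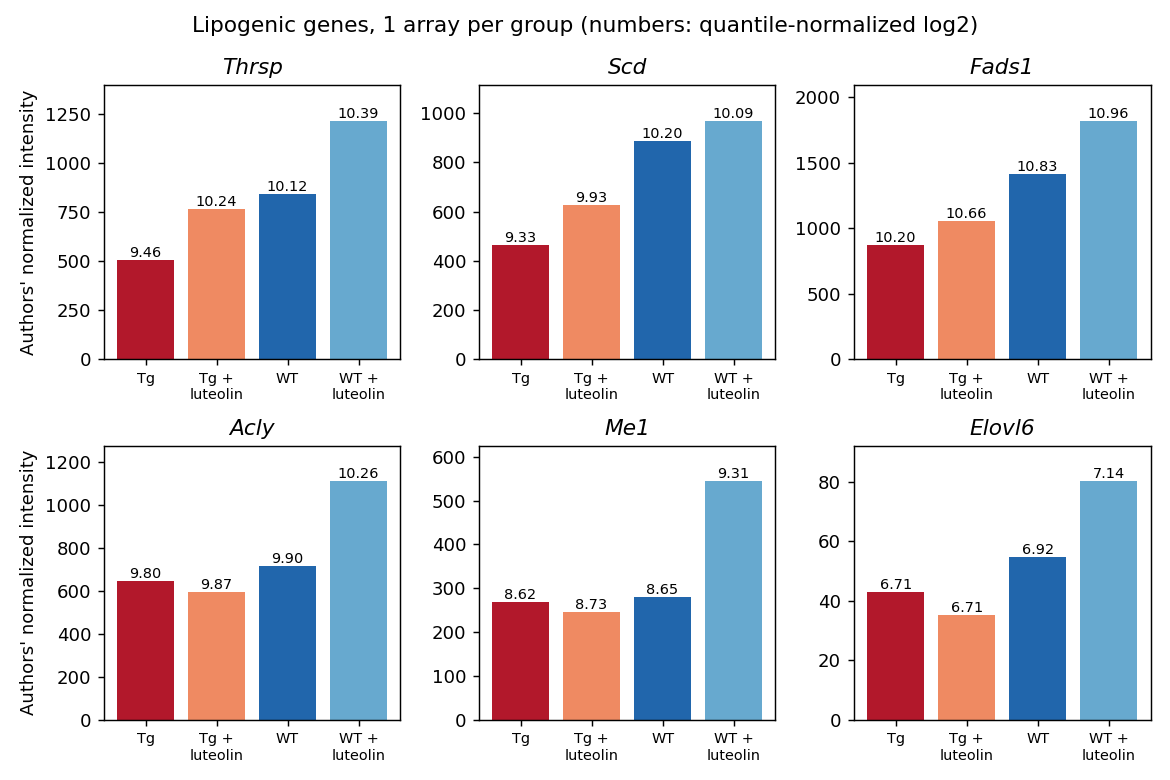
Intensity of the 6 measured lipogenic genes on the 4 arrays (bars, authors' normalized intensity on a linear axis from 0; numbers above the bars, quantile-normalized log2 level; Tg, transgenic; WT, wild type; 1 array per group, no error bars). Thrsp, Scd and Fads1 are lowest on the transgenic array without luteolin, and Acly, Me1 and Elovl6 are highest on the wild-type luteolin array.

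Promoter sequence is shown for the genes that shared the low transgenic array (Thrsp, Fads1 and Scd) and for Acly, as the 250 bases before the annotated start site in the rat build GRCr8 (RefSeq), 5′ to 3′ on the gene's strand. Capitals mark the CCAAT box, the NF-Y motif that often accompanies sterol regulatory elements, on either strand (ATTGG on the reverse). The Thrsp window is chr1:161138965-161139214 on the minus strand, that of Fads1 chr1:216252442-216252691 on the plus strand, that of Acly chr10:85963632-85963881 on the minus strand, and that of Scd chr1:253231732-253231981 on the minus strand.
Thrsp: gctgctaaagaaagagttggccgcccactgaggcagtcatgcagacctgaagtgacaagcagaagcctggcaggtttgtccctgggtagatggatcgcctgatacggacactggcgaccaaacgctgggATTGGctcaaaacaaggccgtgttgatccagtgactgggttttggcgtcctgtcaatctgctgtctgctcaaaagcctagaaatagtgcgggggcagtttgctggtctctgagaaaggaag
Fads1: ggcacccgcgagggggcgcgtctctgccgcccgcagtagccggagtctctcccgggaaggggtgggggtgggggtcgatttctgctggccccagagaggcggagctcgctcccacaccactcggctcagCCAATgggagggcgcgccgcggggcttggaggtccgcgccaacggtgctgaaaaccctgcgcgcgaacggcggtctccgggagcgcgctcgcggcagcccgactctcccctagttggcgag
Acly: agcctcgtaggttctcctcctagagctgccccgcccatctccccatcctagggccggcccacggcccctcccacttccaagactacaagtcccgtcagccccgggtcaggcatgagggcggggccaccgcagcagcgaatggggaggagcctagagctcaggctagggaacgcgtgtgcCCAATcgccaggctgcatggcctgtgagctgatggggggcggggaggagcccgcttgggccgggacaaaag
Scd: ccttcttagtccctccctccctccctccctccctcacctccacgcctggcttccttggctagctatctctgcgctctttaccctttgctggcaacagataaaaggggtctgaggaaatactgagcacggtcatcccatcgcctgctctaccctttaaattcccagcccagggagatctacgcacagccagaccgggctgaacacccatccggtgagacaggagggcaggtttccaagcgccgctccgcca

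RefSeq promoters were matched for 7 of the 10 genes by symbol. A CCAAT box, searched on both strands, was present in 5 of these 7 genes (Srebf1, Mlxipl, Thrsp, Acly and Fads1), against 34.0% of all 33465 promoter windows of this length. Srebf1 and Mlxipl have 2 windows each, which gives a gene more chance of a match than a window has. In Thrsp and in Fads1 the box lay at position -121 from the start site, on opposite strands, and in Acly at -71. The sterol regulatory element letters TCACNCCAC and the E-box CACGTG were found in 0 of the 7, against 0.974% and 5.59% of all windows, so no match overlapped a CCAAT box. These matches describe letters in a short window only.

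The first comparison asked how luteolin in the diet related to these genes in transgenic rats. Thrsp, Scd and Fads1 were higher with luteolin, and the supply enzymes Acly and Me1 and the elongase Elovl6 were close to level. Thrsp had a log2 ratio of 0.78 (1.71-fold), rank 33 from the highest of 14332 genes, Scd 0.60 (1.52-fold, rank 66) and Fads1 0.46 (1.38-fold, rank 173). Across the alternatives of processing these 3 ratios stayed above 0, at 0.50 to 0.84, 0.35 to 0.69 and 0.21 to 0.54. Acly was at 0.07, Me1 at 0.11 and Elovl6 at -0.00. Acly and Me1 turned negative, to -0.17 and -0.15, when arrays were centred on their medians, and to -0.12 each on the deposited values.

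In all, 5 of the 6 genes were higher, against 54.4% of all genes, with a median of 0.29 against 0.01 over all genes. None reached 2-fold, a size that 0.0907% of all genes reached upward and 0.167% downward. Under median centring 3 of 6 were higher, against 40.4% of all genes, and on the deposited values 3 of 6, against 21.5%. Luteolin's ratios in transgenic rats divide by the array on which stellate and cholangiocyte markers were high. With luteolin all 7 measured stellate markers were lower (median -0.69) and all 6 cholangiocyte markers (-0.38). All 4 adipocyte markers compared were lower too (-0.27), of which Lipe (-0.0034) was near background. Another, Pck1 (-0.49), is also a gluconeogenic gene of hepatocytes. All 6 erythroid markers were higher (0.98). Hepatocyte markers had a median of 0.04, with 6 of 9 higher, and macrophage markers one of 0.02, with 3 of 6 higher. The macrophage markers ranged widely, from -1.22 for Lyz2 to 0.24. The part of these markers in the lipogenic ratios was not tested.

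In wild-type rats luteolin went with higher Me1 above all. Me1 had a log2 ratio of 0.66 (1.58-fold), rank 31 from the highest of 14800 genes, and 0.62 to 0.96 over the alternatives. Acly followed at 0.35 (1.28-fold, 0.32 to 0.69 over the alternatives), then Thrsp at 0.27 (0.27 to 0.60) and Elovl6 at 0.23 (0.31 to 0.55). Fads1 was at 0.13 and Scd at -0.11. The sign of Scd depended on scaling, with 0.21 under median centring and 0.13 on the deposited values, and -0.06 once the shift of all genes (0.19) was taken from the deposited values.

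Thus 5 of the 6 genes were higher with luteolin in wild type, against 49.9% of all genes, with a median of 0.25 against 0.00. None reached 2-fold, as 0.0676% of all genes did upward and 0.108% downward. Stellate markers had a median of -0.01 here and cholangiocyte markers one of -0.20 with all 6 lower. Hepatocyte markers had one of 0.00 (0.00 to 0.34 over the alternatives), with 4 of 9 higher, 3 lower and Alb and Ttr tied by rank. All 6 erythroid markers were higher (median 0.34), as were 5 of 6 adipocyte markers compared (0.04). Of the macrophage markers 5 of 6 were lower (-0.06), down to -0.87 for Lyz2. The part of these in the result was not tested.

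The luteolin ratios of the 2 genotypes share no array and were set side by side. The difference between them (transgenic minus wild type) was 0.71 for Scd, 0.50 for Thrsp and 0.34 for Fads1, and -0.55 for Me1, -0.28 for Acly and -0.23 for Elovl6. The design leaves no residual to test such a difference. Scd kept its sign over the alternatives (0.14 to 0.75), as did Me1 (-1.09 to -0.46), Acly (-0.86 to -0.23) and Elovl6 (-0.85 to -0.29). Thrsp turned to -0.10 and Fads1 to -0.24 under median centring, and Fads1 to -0.09 on the deposited values.

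**Figure D2:**
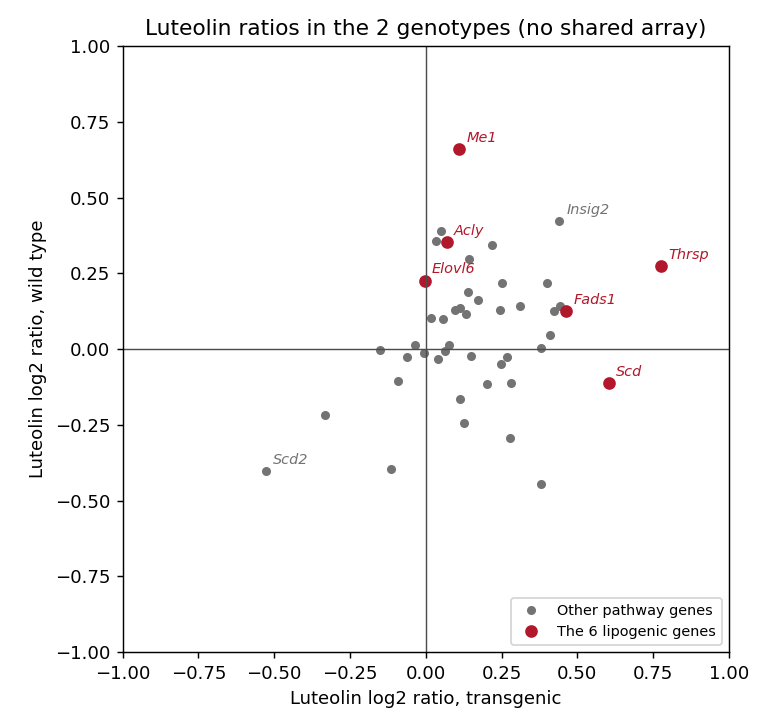
Log2 ratio with luteolin in transgenic rats (x axis) against wild type (y axis) for the 6 lipogenic genes (red) and 40 other genes of the pathway (grey), each ratio being 1 array over 1 array. Thrsp, Scd and Fads1 lie to the right (0.78, 0.60 and 0.46 in transgenic rats) and Me1 at the top (0.66 in wild type).

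The second comparison asked how the livers of the 2 genotypes compared when both ate the same food. Without luteolin all 6 genes were lower in the transgenic rat, led by the desaturases and Thrsp. Scd had a log2 ratio of -0.87 (1.83-fold lower), rank 9 from the lowest of 14727 genes, Thrsp -0.66 (1.57-fold lower, rank 43) and Fads1 -0.63 (1.55-fold lower, rank 48). Their ranges over the alternatives were -0.96 to -0.64, -0.76 to -0.45 and -0.73 to -0.43. Elovl6 was at -0.21, Acly at -0.10 and Me1 at -0.03, and the last 2 became 0.10 and 0.16 under median centring. The 6 genes had a median of -0.42, against -0.00 over all genes, of which 52.7% were lower and 47.1% higher. None was 2-fold lower, as 0.0475% of all genes were, or 2-fold higher (0.129%).

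That comparison uses the same transgenic array as the luteolin ratio in transgenic rats, so a gene low on that array is low here and high there. The stellate markers were higher in all 7 measured (median 0.57) and the cholangiocyte markers in all 6 (0.25). The adipocyte markers were higher in all 5 compared (0.35), of which Adipoq (0.0053) and Lipe (0.033) were near background. The largest ratio among them, 1.25, was that of Pck1, also a gluconeogenic gene of hepatocytes. Macrophage markers had a median of 0.13, with 4 of 6 higher, and ranged from -0.11 to 0.94 for Lyz2. Erythroid markers were lower in all 6 (-0.17), and the part of all these markers was not tested. Hepatocyte markers had a median of 0.00, with 4 of 9 higher, 4 lower and Alb tied. That median is the value of Alb, as quantile normalization gives equal ranks the same level. The hepatocyte median ranged from -0.05 to 0.23 over the alternatives.

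With luteolin in both diets, all 6 genes were again lower in the transgenic rat, on 2 arrays that the previous ratio did not use. The order was different: Me1 was lowest at -0.57 (1.49-fold lower, rank 68 from the lowest of 14386 genes), then Elovl6 at -0.44 (1.35-fold lower), Acly at -0.38 (1.31-fold lower) and Fads1 at -0.29. Scd and Thrsp were at -0.15 each. This comparison shares the wild-type luteolin array with the luteolin ratio in wild type, so a gene high on that array is high there and low here. Me1 had a log2 level of 9.31 on that array, against 8.62 to 8.73 on the others. All 6 stayed below 0 in the alternatives run, which for Elovl6 leave out the stricter filter, with ranges of -1.14 to -0.49 for Me1, -1.19 to -0.46 for Elovl6, -0.90 to -0.32 for Acly, -0.79 to -0.29 for Fads1, -0.63 to -0.15 for Scd and -0.67 to -0.15 for Thrsp. The deposited values carry a shift of all genes by -0.42 in this comparison, and less that shift the 6 genes lay between -0.77 and -0.21. The median of the 6 was -0.34 against 0.00 over all genes, of which 48.4% were lower and 51.4% higher, and none was 2-fold lower (0.0626% of all genes) or higher (0.104%). Stellate markers here had a median of -0.03 (5 of 7 lower) and hepatocyte markers one of -0.08 (5 of 9 lower). All 6 cholangiocyte markers were higher (0.09), as were 5 of 6 erythroid (0.05), 4 of 6 macrophage (0.20) and 3 of 4 adipocyte markers compared (0.07). The part of these markers was not tested.

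On quantile-normalized values both wild-type arrays lay above both transgenic arrays for 4 of the 6 genes, Acly, Elovl6, Scd and Fads1, against 17.4% of all genes tested. For Thrsp and Me1 the groups overlapped, since the transgenic luteolin array lay above the wild-type array without luteolin. On the deposited values all 6 were so separated, against 36.5% of all genes.

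**Figure D3:**
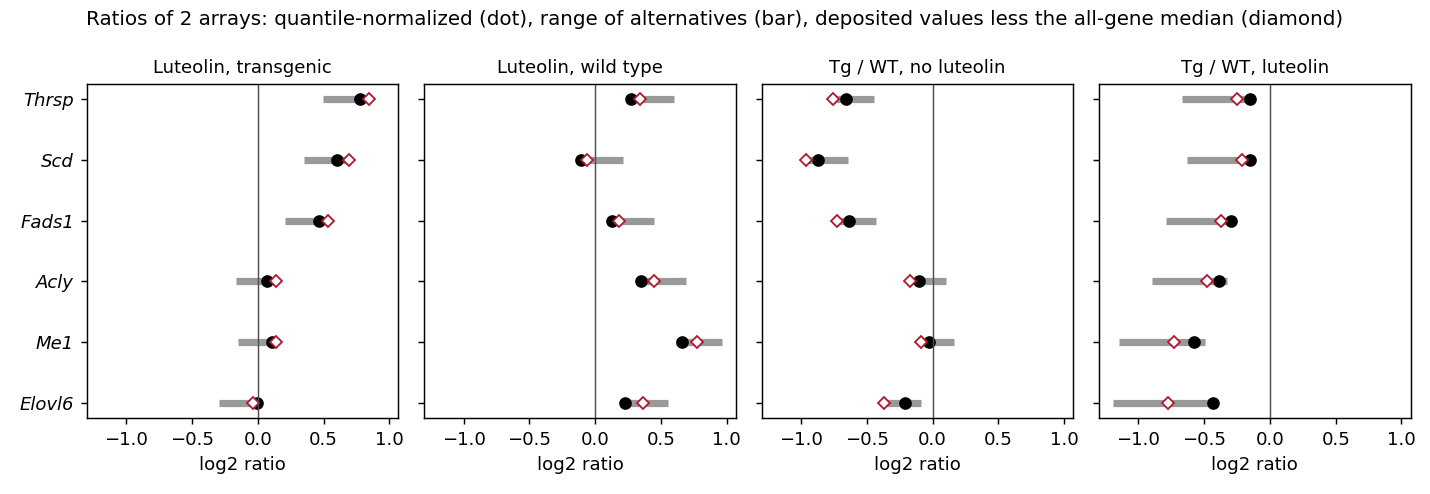
Log2 ratios of the 6 lipogenic genes in the 4 comparisons (dots, quantile-normalized; grey bars, range over the alternatives; diamonds, deposited values less the median of all genes; Tg, transgenic; WT, wild type). Every genotype ratio with luteolin is below 0 (-0.57 to -0.15), and without luteolin the bars of Acly and Me1 cross 0.

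Over all 4 arrays, limma's additive model estimated a mean luteolin and a mean genotype difference, with 1 residual degree of freedom per gene that holds the interaction and the spread between samples. No gene of 14129 passed an adjusted p of 0.05 for luteolin (0% called, 1215 at an unadjusted p under 0.05) or genotype (0%, 1018 unadjusted). For luteolin the coefficient of Thrsp was 0.52 (SE 0.16, limma adjusted p = 0.579), of Me1 0.38 (SE 0.17), of Fads1 0.29 (SE 0.11), of Scd 0.25 (SE 0.22), of Acly 0.21 (SE 0.09) and of Elovl6 0.11 (SE 0.08). For genotype, Scd had -0.51 (SE 0.22), Fads1 -0.46 (SE 0.11, limma adjusted p = 0.686), Thrsp -0.40 (SE 0.16), Elovl6 -0.32 (SE 0.08), Me1 -0.30 (SE 0.17) and Acly -0.24 (SE 0.09). Adjusted p-values of the 6 genes ran from 0.579 to 0.846 for luteolin and from 0.686 to 0.803 for genotype.

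The call depended on which genes entered the model. With only the 5949 genes at least 50 units above background on all 4 arrays, limma called Thrsp higher with luteolin (adjusted p = 0.00528, and 0.00528 to 1.00 over the alternatives), among 190 genes, of which 78 were higher (1.31% of those tested, with 1.88% lower). It then called Scd (adjusted p = 0.0109, and 0.0109 to 1.00 over the alternatives) and Fads1 (0.0268, and 0.0268 to 1.00) lower in transgenic rats, among 125 genes, of which 45 were lower (0.756%, with 1.34% higher). When limma's prior was allowed to follow intensity, 321 genes passed for luteolin (0.538% of those tested higher, 1.73% lower) and 149 for genotype (0.701% higher, 0.354% lower). None of the 6 was among them, Thrsp having a limma adjusted p of 0.0852 for luteolin.

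Other genes of the pathway were counted from lists of 44 genes, of which 40 had a probe and all 40 lay above background on every array. With luteolin 32 of 40 were higher in transgenic rats (median 0.14, against 54.4% of all genes higher) and 22 of 40 in wild type (0.01, against 49.9%). In transgenic against wild type 26 of 40 were lower without luteolin (-0.08, against 52.7%) and 20 of 40 with it (-0.00, against 48.4%). The medians ranged over the alternatives from -0.02 to 0.27, 0.0045 to 0.27, -0.17 to 0.05 and -0.47 to 0.02, in that order, so that 3 of the 4 changed sign. Neither limma effect passed an adjusted p of 0.05 for any of them in the model over all genes.

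Genes that act on acetyl-CoA carboxylase, the committed step, mostly lay in the same direction as Thrsp and Scd in both ratios that use the transgenic array. Mid1ip1, a Spot 14 relative that promotes polymerisation of acetyl-CoA carboxylase, was at 0.41 with luteolin in transgenic rats and at -0.46 in transgenic against wild type without luteolin. Acacb, the mitochondrial isoform of the carboxylase, had 0.27 and -0.30 and was dim, with deposited intensities of 18.1 to 32.3. The AMP kinase subunits Prkab1 and Prkaa2, which restrain the carboxylase, had 0.31 and -0.27, and 0.25 and -0.25. Under median centring Mid1ip1 moved to 0.13 and -0.24, Prkab1 to 0.036 and -0.068, and Prkaa2 to -0.028 and -0.041. Over the 7 measured genes of this group the median was 0.25 with luteolin in transgenic rats (0.036 to 0.35 over the alternatives) and 0.05 in wild type. Of the 7, 5 were higher in transgenic rats, against 54.4% of all genes, and 4 in wild type, against 49.9%. For genotype without luteolin the median was -0.25 (-0.35 to -0.07 over the alternatives), with 5 lower, against 52.7% of all genes. For genotype with luteolin, on 2 other arrays, it was -0.10 (-0.59 to -0.07 over the alternatives), with 5 lower, against 48.4%. In the 2 ratios that use the transgenic array without luteolin, the other AMP kinase subunits Prkaa1 (-0.15 and 0.15) and Prkag1 (-0.09 and 0.11) had the opposite signs.

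Of 13 transcription factors and SREBP processing genes, Insig2, which holds SREBP precursors in the endoplasmic reticulum, had luteolin ratios of 0.44 in transgenic and 0.42 in wild type, which became 0.20 and 0.74 under median centring. The liver X receptor gene Nr1h2 had 0.28 and -0.29, and 0.047 and -0.12 under median centring. Mlx, the partner of ChREBP, had 0.25 and 0.22, although median centring turned the first to -0.02. Srebf2, which drives cholesterol synthesis, was at -0.20 and -0.23 in transgenic against wild type without and with luteolin, and at -0.0049 and -0.56 under median centring.

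Among 9 genes of carbon and NADPH supply, luteolin went with a higher level of 6 in transgenic rats (median 0.20, against 54.4% of all genes higher). In wild type 3 of the 9 were higher (-0.11, against 49.9%). Acss2, which makes acetyl-CoA from acetate, had luteolin ratios of 0.40 and 0.22, and liver pyruvate kinase (Pklr), a ChREBP target, 0.22 and 0.34. Taldo1, of the pentose phosphate pathway, was lower with luteolin in both (-0.11 and -0.40), whereas Me1 was higher in wild type. The medians of this list turned to -0.036 in transgenic rats and up to 0.20 in wild type over the alternatives.

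Among 11 other elongation and desaturation genes, the delta-6 desaturase Fads2 had 0.42 and 0.12 for luteolin in transgenic and wild type and -0.36 for genotype without luteolin. Cyb5r3, the reductase that feeds electrons to the desaturases, had 0.44, 0.14 and -0.28. Under median centring Fads2 had 0.18, 0.43 and -0.18, and Cyb5r3 0.20, 0.44 and -0.07, so the larger luteolin ratio was then in wild type. Scd2, a paralog of Scd best known from brain in mice, went the other way, with -0.53, -0.40 and 0.51. Probe sequences were not used here, so cross-hybridisation between Scd and Scd2 was not checked.

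**Figure D4:**
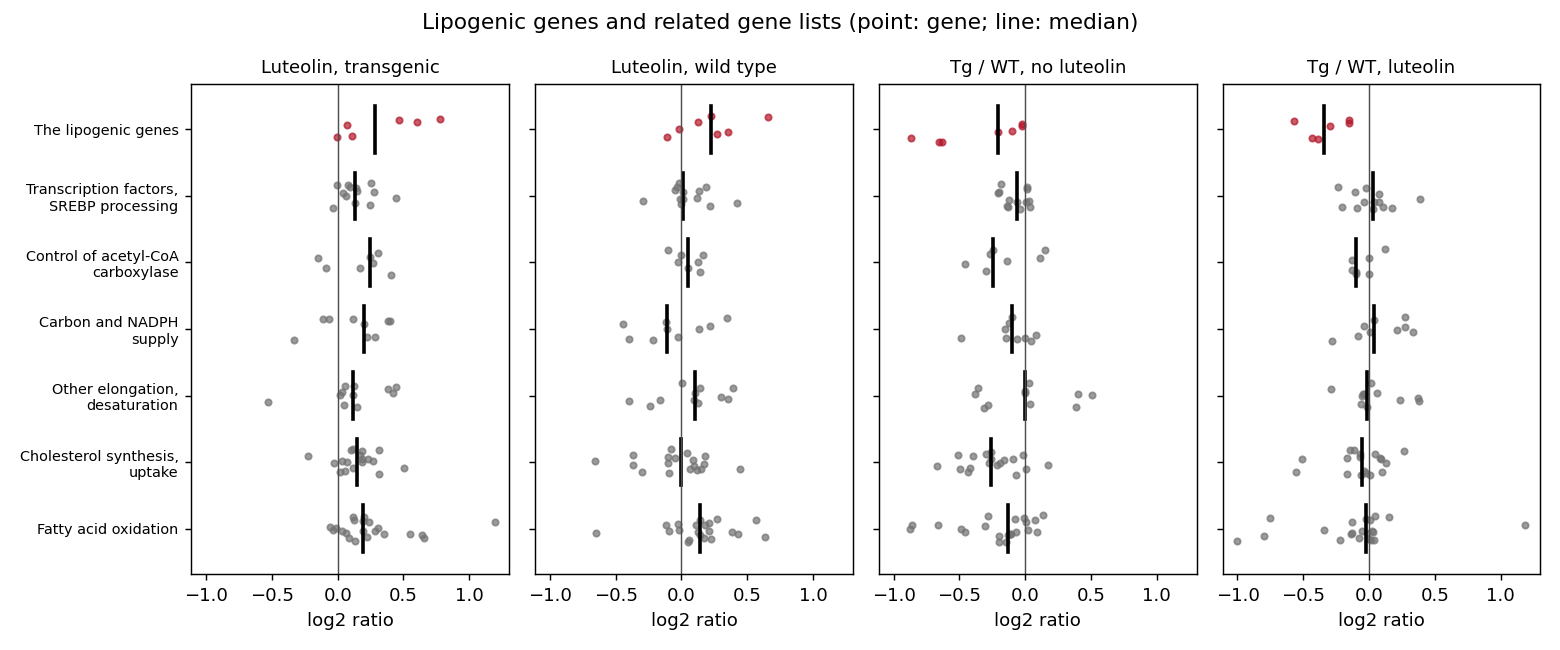
Log2 ratio of each gene (points) and list median (black lines) for the lipogenic genes (red), 4 lists of other pathway genes and 2 comparison lists (grey), in the 4 comparisons of 1 array over 1 array (Tg, transgenic; WT, wild type). The lipogenic genes have medians of 0.29 and 0.23 with luteolin and of -0.21 and -0.34 for genotype, with Srebf1 counted in the second and the third. Over the 6 genes without Srebf1, which is at the edge of detection, the second is 0.25 and the third -0.42.

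Cholesterol synthesis and uptake, the pathway of the related factor SREBP-2, and fatty acid oxidation, which burns what lipogenesis makes, were set beside these. Over all genes, 52.7% were lower in transgenic rats without luteolin and 48.4% with it. Luteolin went with higher levels of 54.4% of all genes in transgenic rats and 49.9% in wild type. Of 18 cholesterol genes 16 were lower in transgenic rats without luteolin (median -0.26, and -0.34 to -0.05 over the alternatives) and 11 with it (-0.05, and -0.54 to -0.04). With luteolin 16 were higher in transgenic rats (0.15, and down to -0.09 over the alternatives) and 9 in wild type (-0.00, and -0.05 to 0.25). Hmgcs1, an early enzyme of the pathway, was at -0.51 for genotype without luteolin and at -0.56 with it. Of 21 oxidation genes 16 were lower in transgenic rats without luteolin (-0.13) and 12 with it (-0.02), with Cpt1a, which admits fatty acids to mitochondria, at -0.86 and -0.80. These medians ranged from -0.22 to 0.07 and from -0.51 to -0.03 over the alternatives. Luteolin went with higher levels of 18 of the 21 in transgenic rats (0.19, and -0.074 to 0.24 over the alternatives) and of 16 in wild type (0.14, and 0.14 to 0.44). Whether the lipogenic genes differed from either list was not tested.

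The genes whose profile over the 4 arrays was nearest to that of Thrsp and Scd, the 2 with the widest range, were found among 11354 named genes by the root mean square difference of centred log2 levels. For Thrsp these were Rnf125 (0.05), the bile acid and very long chain acyl-CoA synthetase Slc27a5 (0.06), the pantothenate kinase Pank1 (0.06) and Id4 (0.07). For Scd they were the carnitine transporter Slc22a5 (0.05), the transporter Slc6a13 (0.06), the bile acid hydroxylase Cyp8b1 (0.07) and the lipid droplet protein Plin2 (0.07). These compare with ranges of 0.93 for Thrsp and 0.87 for Scd over the 4 arrays.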

How the data were processed

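Liver RNA was amplified and labelled with Cy5, per the labels' protocols. Each deposited file gives a raw intensity per probe, an intensity less 1 constant per array (37.5 to 39.8), blank at or near background, and that intensity scaled by the authors to a median of 25, as tested on the values. The series table held the last column rounded, within 0.500. The sources used here do not name the scanner or its software. Raw intensity and the constant were corrected with limma's normexp (offset 50), taken to log2 and quantile normalized (R 4.3.3, limma 3.58.1). A probe counted as above background where the authors gave a background-subtracted intensity. On the transgenic luteolin array 2 spots not passing the authors' flag were left out. Probes were named through the RefSeq gene table (GRCr8), by curated transcript accession (10660), Entrez identifier (3123), other accession (78) or file symbol, and the brightest probe per gene was used. Ratios are differences of 2 arrays. The additive limma model used lmFit and eBayes, with Benjamini-Hochberg over all genes. It was also run on simulated data with additive effects only, so that run does not cover an interaction of genotype and luteolin. Named genes are the 10 genes, up to 5 per related list with the largest ratio, and the nearest profiles. A few listed genes that this rule takes in are not reported here. The genes and lists were chosen with earlier results of these data known. The median log2 ratio of all genes on the deposited values was -0.26, 0.19, 0.03 and -0.42 for luteolin in transgenic, luteolin in wild type, genotype without and genotype with luteolin. Alternatives were median centring, an offset of 16, the deposited values (also less that median, chosen after seeing the data), a stricter filter of 50 units, and each ratio less the median of the 100 nearest probes in the file.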

Additional observations from a re-analysis of the deposited data

Results flagged for a closer look

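Luteolin ratios had opposite signs in the 2 genotypes for 2 of the 6 lipogenic genes, a difference that was not tested because each ratio rests on 1 array over 1 array. Scd was at 0.60 in transgenic rats and at -0.11 in wild type, a difference of 0.71, and its wild-type sign turned under median centring and on the deposited values. Elovl6 was at -0.00 and 0.23, a difference of -0.23, with the first value next to 0. Among the other pathway and comparison genes, opposite ratios both beyond the SD over all genes (0.19 in transgenic, 0.16 in wild type) were seen for Nr1h2 (difference 0.57), the isoprenoid enzyme Idi1 (-0.68) and the fasting hormone Fgf21 (1.85), none of them tested. How many of all genes meet this rule was not counted. Under median centring Nr1h2 was at 0.047 and -0.12, within the SD over all genes there (0.22 and 0.20). Fgf21 was at 1.19 in transgenic rats and -0.65 in wild type.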

How the results depend on the processing

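No paired analysis was possible because each group had 1 array. Of 140 recomputed ratios of single lipogenic genes 9 changed sign, and 0 of 24 recomputed medians of these genes did. The 140 include the stricter filter, which only drops genes. The single ratios it keeps equal those reported and could not change sign. In the order luteolin in transgenic, luteolin in wild type, genotype without and genotype with luteolin, median centring moved the median of the lipogenic genes (with Srebf1 in the second and the third) to 0.036, 0.45, -0.094 and -0.63, and the deposited values moved it to 0.081, 0.53, -0.48 and -0.84. Without luteolin the genotype median was -0.63 under the stricter filter, which drops the dim genes, and -0.50 on deposited values less the median of all genes. Without Srebf1 that median was -0.26 under median centring, against -0.42. The genes higher fell from 5 to 3 for luteolin in transgenic rats under median centring (40.4% of all genes higher) and on the deposited values (21.5%), and 2 in place of 0 were higher for genotype without luteolin under median centring (58.3%). Counts of all genes 2-fold higher and lower, in the same order, were 13 and 24, 10 and 16, 19 and 7, and 15 and 9 as reported. They were 5 and 61, 23 and 10, 37 and 4, and 7 and 31 under median centring, 44 and 864, 279 and 91, 387 and 97, and 46 and 766 on the deposited values, and 114 and 460, 140 and 176, 360 and 108, and 144 and 118 on those values less the median. An offset of 16 gave 25 and 72 in the first and 37 higher in the third, and the stricter filter 3 lower in the third. The additive limma model called 0 genes for luteolin as reported, 1 with an offset of 16, 79 on the deposited values, 190 under the stricter filter and 321 with the trend, and for genotype 0, then 26, 125 and 149 under the last 3. The median for carbon and NADPH supply with luteolin in transgenic rats reversed to -0.036 under median centring, and that for fatty acid oxidation to -0.074 there and to -0.013 on the deposited values. The cause of these shifts was not tested. The stricter filter tests fewer genes, and limma's prior was also estimated anew from them. With 1 array per group, Srebf1 and Acaca at background and Elovl6 dim, small ratios have no error estimate.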
